A study of Homo sapiens with 4 samples.

Results

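RAB GTPase genes were followed in G401 cells in which BRD9 was targeted with CRISPR-Cas9 and in control cells. The RAB genes were taken as every gene model whose symbol is RAB followed by a number and at most 1 letter from A to D, which gave 61 of the 57820 models quantified. RAB7L1, also known as RAB29, falls outside this naming rule and is given with the RAB-like genes at the end. Of these, 46 had enough counts to be tested among 15288 tested genes, 10 had counts but too few to test, and 5 had a count of 0 in all libraries.

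RAB proteins are small GTPases that mark the membranes of the secretory and endocytic routes. An exchange factor loads a RAB with GTP on its membrane, the loaded RAB recruits effectors such as tethers and motors, and a GTPase-activating protein switches it off, after which GDI extracts it from the membrane. Each compartment carries its own set of RABs, and many exist as near-identical paralogs.

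The data comprised RNA-seq of 2 BRD9 KO libraries and 2 LacZ control libraries. G401 is an established line from a malignant rhabdoid tumor of the kidney that lacks SMARCB1, a SWI/SNF chromatin remodeling subunit, so both groups lack it. BRD9, a bromodomain subunit of another SWI/SNF assembly, was targeted with CRISPR-Cas9, and LacZ, a bacterial gene, names the control. By the methods, Cas9-expressing cells received a guide by lentivirus and were selected with puromycin, and the labels do not say whether these cells were cloned. The paper reports that attempts to obtain a BRD9-deficient clone of G401 failed. The replicates are called biological, but separate cultures are not stated, and a p-value here reflects how far 2 libraries of a group lay apart, possibly for technical reasons alone.

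Totals ran from 15053247 to 19559290 estimated counts per library, and 8.15 to 8.48% of counts came from mitochondrially encoded genes. BRD9 was at 29.4 and 26.8 CPM (counts relative to the library total, scaled by TMM) in BRD9 KO cells, against 48.2 and 53.8 CPM in LacZ control cells, which differed by −0.86 ± 0.07 on the log2 scale (SE, edgeR adjusted p = 2.84e-09). BRD9 shares exons with ZDHHC11 on its strand. BRD9 transcript was thus lower but present in the knockout libraries, as far as counts over the whole gene can tell. Protein was not measured in these data, and the paper gives a western blot for the deletion of BRD9 in G401 cells. SMARCB1 had 0 counts in all 4 libraries, and the leukocyte, endothelial, neuronal and melanocyte markers PTPRC, CD3E, CDH5, SNAP25 and TYR were also at 0. Of the other markers, EPCAM, CDH1, SYT1 and MLANA stayed at or below 0.663 CPM and PMEL ranged from 2.82 to 3.52 CPM. CD68, which also encodes a lysosomal protein, was at 194 and 191 CPM in BRD9 KO cells, against 156 and 164 CPM in LacZ control cells. Among the markers of the line itself, VIM was lower and KRT8 and KRT18 were higher in BRD9 KO cells (log2 fold changes −0.49, 0.42 and 0.37), and their part in the results for RAB genes was not tested. In bulk RNA, fewer cells of a kind and less RNA per cell cannot be told apart.

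In BRD9 KO cells, small changes in both directions were seen across the RAB family. By edgeR's quasi-likelihood test (adjusted p under 0.05 over all genes tested), 15 of the 46 tested RAB genes were higher in BRD9 KO cells and 8 were lower, that is 32.6% and 17.4%, beside 20.5% and 18.1% of all tested genes. In either direction, 23 of the 46 tested RAB genes were called, beside 38.6% of all tested genes. The median log2 fold change of the RAB genes was 0.03, beside −0.01 for all tested genes, with a range from −0.57 for RAB4B to 0.55 for RAB6B. None of the 46 tested RAB genes reached a fold of 1.5 by edgeR, and none was past it by DESeq2 at an unadjusted p under 0.05, while 6.86% of all tested genes were called by edgeR with such a fold. With 1 library left out, RAB6B or RAB4B was called past that fold in 3 of 4 cases, at log2 fold changes from −0.73 (RAB4B) to 0.62 (RAB6B).

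The share of called genes moved with expression level. At a mean of 100 to 300 CPM, 7 of 8 RAB genes were called, beside 64.6% of all tested genes in that band. At 50 to 100 CPM, 9 of 15 were called, beside 54.0%. Below that, 6 of 19 RAB genes at 10 to 50 CPM and 1 of 4 under 10 CPM were called, beside 39.0% and 19.1%. The part of expression level in the count of called RAB genes was not tested.

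CPM values of the 2 groups did not overlap for 32 of the 46 tested RAB genes, which included all 23 called genes. For 20 RAB genes (43.5%) both BRD9 KO libraries lay above both LacZ control libraries, beside 34.1% of all tested genes. For 12 RAB genes (26.1%) both lay below, beside 34.5%. DESeq2 called 11 RAB genes higher and 1 lower (23.9% and 2.17%), beside 15.5% and 10.4% of all genes it gave an adjusted p. The call held under all 11 alternative analyses for 10 of the 15 higher genes (RAB1A, RAB5C, RAB6B, RAB7A, RAB14, RAB15, RAB18, RAB21, RAB22A and RAB32) and for 1 of the 8 lower genes (RAB31). The count of lower genes depended on single libraries: it was 4 without BRD9 KO replicate 1, 4 without BRD9 KO replicate 2, 6 without LacZ control replicate 1 and 2 without LacZ control replicate 2, while the count of higher genes stayed between 11 and 13.

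**Figure D1:**
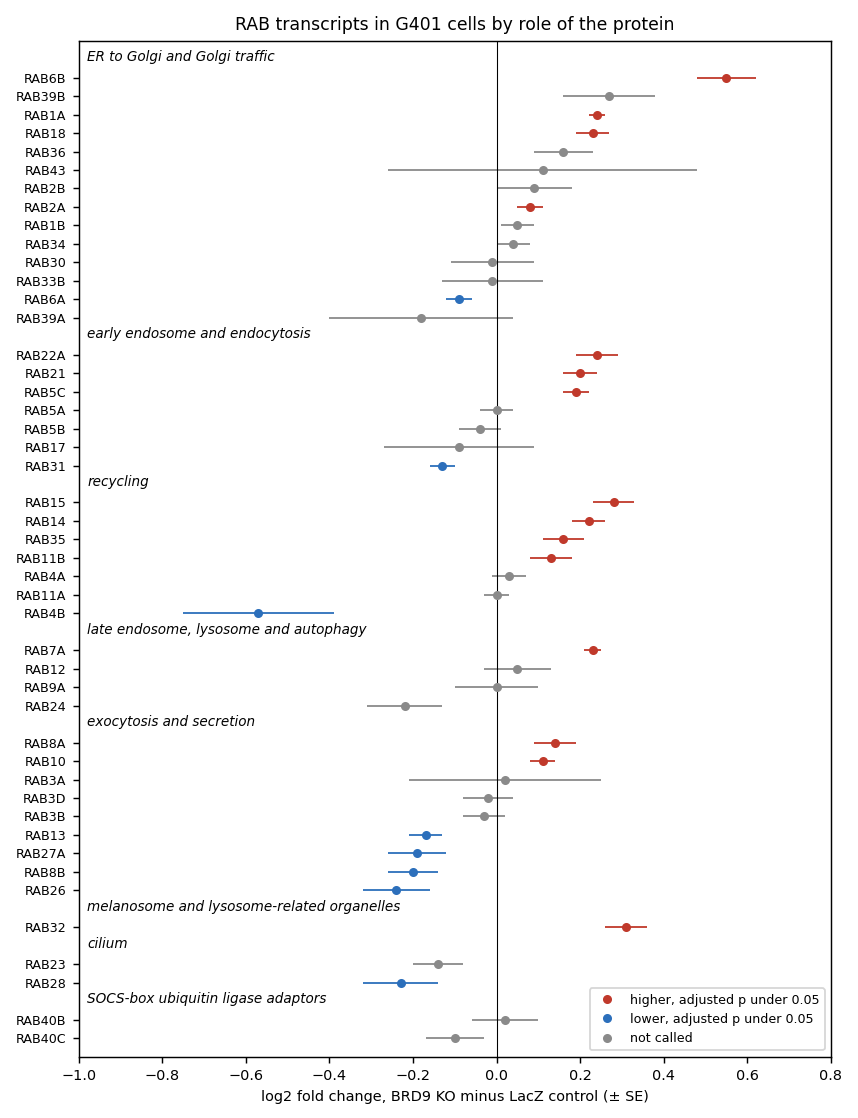
Log2 fold change of each tested RAB transcript (BRD9 KO minus LacZ control, points, with ± 1 SE as bars), grouped by the role of the protein. The 15 red points to the right are called higher, the 8 blue points to the left are called lower, and no point reaches a fold of 1.5.

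Per length, the RAB transcripts of these cells were led by the RABs of recycling, early secretory and late endosomal membranes. In TPM, the authors' measure of transcript level per length, RAB11A, which drives slow recycling to the plasma membrane, was at 274.6 and 258.1 in BRD9 KO cells, against 268.3 and 259.7 in LacZ control cells. RAB1A, which directs transport between the ER and the Golgi, was at 278.1 and 285.3 TPM in BRD9 KO cells, against 234.8 and 236.2 TPM in LacZ control cells. RAB7A, which directs late endosomes to lysosomes, was at 234.1 and 243.0 TPM in BRD9 KO cells, against 207.3 and 195.5 TPM in LacZ control cells. RAB11A overlapped between groups, whereas RAB1A and RAB7A did not.

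RAB10, which acts in exocytosis, and RAB34, a Golgi RAB that also acts in ciliogenesis, completed the 5 most abundant. RAB10 was at 132.7 and 132.5 TPM in BRD9 KO cells, against 128.4 and 116.7 TPM in LacZ control cells. RAB34 was at 120.3 and 121.5 TPM in BRD9 KO cells, against 121.0 and 110.2 TPM in LacZ control cells. RAB34 overlapped between groups in TPM, and its mean of 118.3 TPM lay beside that of RAB5C at 117.9 TPM, so their order is not settled. The least abundant tested members were RAB39A (2.72 to 3.49 TPM), RAB3A (2.99 to 5.32 TPM) and RAB33B (3.90 to 4.66 TPM).

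Summed over all 61 genes, RAB transcripts were at 2584.1 and 2618.5 TPM in BRD9 KO cells, against 2425.5 and 2405.8 TPM in LacZ control cells. The sums did not overlap and the mean was 7.68% higher in BRD9 KO cells, but with 2 libraries a group the exact permutation test cannot go below its two-sided p = 0.333. Transcripts of the ER and Golgi RABs made up 33.3 and 33.9% of that sum in BRD9 KO cells, against 32.6 and 32.9% in LacZ control cells. Exocytosis RABs made up 14.7 and 15% of the sum in BRD9 KO cells, against 16.2 and 15.8% in LacZ control cells. Neither share overlapped between groups. The shares of late endosome RABs and of melanosome RABs also lay higher in both BRD9 KO libraries, and that of cilium RABs lay lower. Those of early endosome, recycling and SOCS-box RABs overlapped. The limit of 2 libraries a group holds for each share as well.

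**Figure D2:**
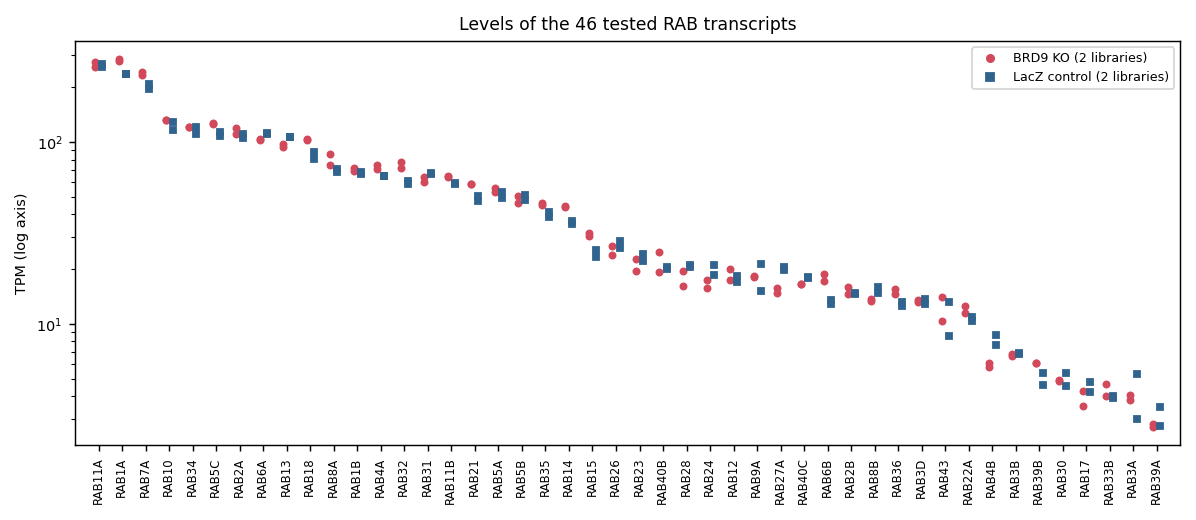
Level of each of the 46 tested RAB transcripts in TPM (log axis), ordered by mean level, with 1 point per library (circles, BRD9 KO; squares, LacZ control). RAB11A, RAB1A and RAB7A stand at the top, with LacZ control libraries of RAB1A and RAB7A below the BRD9 KO libraries.

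The role groups that follow hold 1 to 14 tested genes each, and their counts are descriptions to be read beside the 20.5% higher and 18.1% lower of all tested genes. Among the RABs of ER to Golgi and Golgi traffic, 4 of 14 tested genes were higher in BRD9 KO cells and 1 was lower. The largest rise of the family was that of RAB6B, a paralog of RAB6A known for its expression in brain and its part in retrograde traffic at the Golgi. RAB6B was at 31.2 and 34.2 CPM in BRD9 KO cells, against 22.5 and 22 CPM in LacZ control cells. Both knockout libraries lay above both controls (log2 fold change 0.55 ± 0.07, SE, edgeR adjusted p = 3.71e-06). Exons of RAB6B overlap SRPRB on the other strand, and reads there cannot be assigned because the kit does not mark strand.

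RAB1A was at 242.4 and 245.8 CPM in BRD9 KO cells, against 206.4 CPM in both LacZ control libraries. The groups were apart by far more than the libraries of either group, with a log2 fold change of 0.24 ± 0.02 (SE, edgeR adjusted p = 7.33e-08). RAB1A shares exon sequence with CEP68 on the other strand. RAB18, which acts at the ER and on lipid droplets, was at 88.9 and 91.8 CPM in BRD9 KO cells, against 74.4 and 79.3 CPM in LacZ control cells, with a log2 fold change of 0.23 ± 0.04 (SE, edgeR adjusted p = 1.08e-04). RAB2A, another RAB of the early secretory route, differed least among the genes called higher, a difference of 0.08 on the log2 scale (edgeR adjusted p = 0.0402), and lost its call in 7 of 11 alternatives, including each with a library left out (adjusted p up to 0.209).

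RAB6A, the ubiquitous Golgi RAB, was at 180.4 and 187.0 CPM in BRD9 KO cells, against 193.2 and 198.0 CPM in LacZ control cells. All knockout values lay below all control values, by little (log2 fold change −0.09 ± 0.03, SE, edgeR adjusted p = 0.0104). The call was lost with DESeq2 (adjusted p = 0.166), without BRD9 KO replicate 1 (0.161) and without LacZ control replicate 2 (0.135), the range over alternatives being 0.00286 to 0.166. The uncalled members of this group were RAB1B, RAB2B, RAB30, RAB33B, RAB34, RAB36, RAB39A, RAB39B and RAB43, with log2 fold changes from −0.18 to 0.27. Among them RAB39B, mutated in a form of X-linked intellectual disability, was at 12.6 CPM in both BRD9 KO libraries, against 9.62 and 11.2 CPM in LacZ control cells (edgeR adjusted p = 0.0582), and RAB36 showed a log2 difference of 0.16 (edgeR adjusted p = 0.0651). Each gained a call in 1 alternative, RAB39B without LacZ control replicate 2 (adjusted p = 0.0495, lowest of a range up to 0.35) and RAB36 with no filter on low counts (adjusted p = 0.0484, lowest of a range up to 0.33). RAB43 shares exons with the read-through gene ISY1-RAB43 on its strand, and its estimated counts carried a posterior SD of up to 17.7%, so its value is uncertain.

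Of the early endosome and endocytosis RABs, 3 of 7 tested genes were higher in BRD9 KO cells and 1 was lower. RAB22A, which acts in early endosomal sorting, was at 58.8 and 61.8 CPM in BRD9 KO cells, against 50.6 and 51.5 CPM in LacZ control cells, with a log2 fold change of 0.24 ± 0.05 (SE, edgeR adjusted p = 4.07e-04). RAB21, a RAB of integrin endocytosis whose exons overlap a clone-named gene on the other strand, and RAB5C, 1 of the 3 RAB5 paralogs that govern early endosome fusion, had log2 fold changes of 0.20 and 0.19 (edgeR adjusted p = 3.11e-04 and 1.99e-04). RAB5A and RAB5B did not pass the test, with log2 fold changes of 0.00 ± 0.04 and −0.04 ± 0.05 (SE), and RAB17 was at −0.09 ± 0.18.

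RAB31, also known as RAB22B and active between the trans-Golgi and endosomes, moved the other way from RAB22A. It was at 144.0 and 147.3 CPM in BRD9 KO cells, against 161.7 and 157.8 CPM in LacZ control cells. The groups were separate in CPM and the log2 fold change was −0.13 ± 0.03 (SE, edgeR adjusted p = 8.87e-04). RAB31 was the lower gene whose call held in every alternative, with adjusted p from 1.28e-04 to 0.0336.

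In the recycling group, 4 of 7 tested genes were higher in BRD9 KO cells and 1 was lower. RAB15, an endosomal recycling RAB, was at 55.5 and 58.0 CPM in BRD9 KO cells, against 47.4 and 46 CPM in LacZ control cells, with a log2 fold change of 0.28 ± 0.05 (SE, edgeR adjusted p = 1.20e-04). RAB14, which links the Golgi and endosomes, was at 103.6 and 103.5 CPM in BRD9 KO cells, against 86.8 and 90.9 CPM in LacZ control cells, with a log2 fold change of 0.22 ± 0.04 (SE, edgeR adjusted p = 5.48e-05). Neither overlapped between groups. RAB35, a RAB of fast recycling, showed a log2 difference of 0.16 (edgeR adjusted p = 0.0155), which was lost with DESeq2 (0.095) and without LacZ control replicate 2 (0.251, the highest over alternatives). RAB11B, whose exons overlap its antisense gene RAB11B-AS1, showed a log2 difference of 0.13 (edgeR adjusted p = 0.0257) and lost its call with DESeq2 and with any library left out (adjusted p up to 0.14).

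RAB4B, of fast endosomal recycling, had the largest fall of the family and was also the least counted of the called members. It was at 3.59 and 3.86 CPM in BRD9 KO cells, against 4.84 and 6.18 CPM in LacZ control cells. The groups did not overlap (log2 fold change −0.57 ± 0.18, SE, edgeR adjusted p = 0.0176), and the posterior SD of its estimated counts reached 8.12%. The call was lost with DESeq2 (adjusted p = 0.162), without BRD9 KO replicate 1 (0.0946) and without LacZ control replicate 2 (0.243, with a log2 fold change of −0.38), over a range of 0.00967 to 0.243. RAB4A and RAB11A were uncalled at 0.03 ± 0.04 and 0.00 ± 0.03 on the log2 scale (SE).

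In late endosome, lysosome and autophagy, RAB7A was the called member among 4 tested. RAB7A was at 264.5 and 269.7 CPM in BRD9 KO cells, against 229.7 and 225.4 CPM in LacZ control cells, with a log2 fold change of 0.23 ± 0.02 (SE, edgeR adjusted p = 1.04e-07). RAB24, an autophagy RAB that shares exons with MXD3 on its strand, was at 13.7 and 12.9 CPM in BRD9 KO cells, against 14.9 and 16.1 CPM in LacZ control cells, and did not pass (log2 fold change −0.22 ± 0.09, SE, edgeR adjusted p = 0.072). RAB9A, which returns receptors from late endosomes to the Golgi, and RAB12 were at 0.00 ± 0.10 and 0.05 ± 0.08. RAB32, known for sorting melanosome enzymes and for lysosome-related organelles, was at 49.6 and 53.6 CPM in BRD9 KO cells, against 40.5 and 42.6 CPM in LacZ control cells. This was the second largest rise among the RAB genes of the naming rule (log2 fold change 0.31 ± 0.05, SE, edgeR adjusted p = 1.52e-04). RAB7L1, outside the rule, rose more (0.39). The close relative RAB38 and the melanocyte gene TYR had 0 counts in every library. The melanocyte genes PMEL (2.82 to 3.52 CPM) and MLANA (0.245 to 0.663 CPM) had counts in each.

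The exocytosis and secretion group held 4 of the 8 lower genes: of 9 tested, 2 were higher in BRD9 KO cells and 4 were lower, beside 20.5% and 18.1% of all tested genes. RAB8A and RAB10, both of transport to the plasma membrane, were called higher. RAB8A was at 52.0 and 57.1 CPM in BRD9 KO cells, against 50.3 and 48.5 CPM in LacZ control cells, with a log2 fold change of 0.14 ± 0.05 (SE, edgeR adjusted p = 0.0425), and RAB10 was at 223.5 and 226.3 CPM in BRD9 KO cells, against 212.8 and 204.0 CPM in LacZ control cells, with 0.11 ± 0.03 (adjusted p = 0.00168). RAB8A lost its call in 5 of 11 alternatives, with a log2 fold change of 0.08 without BRD9 KO replicate 2. RAB10 lost its call in 1, without LacZ control replicate 2 (log2 fold change 0.08). Exons of RAB8A overlap a clone-named gene on the other strand.

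RAB8B, the paralog of RAB8A, was at 38.3 and 35.5 CPM in BRD9 KO cells, against 41.6 and 43.3 CPM in LacZ control cells (log2 fold change −0.20 ± 0.06, SE, edgeR adjusted p = 0.0096). RAB13, a RAB of tight junction traffic, was at 62.0 and 64.5 CPM in BRD9 KO cells, against 71.0 and 70.8 CPM in LacZ control cells (log2 fold change −0.17 ± 0.04, SE, edgeR adjusted p = 0.00271). Both were lower in every knockout library than in every control, and RAB13 lost its call under DESeq2 only (adjusted p = 0.0835, the highest over alternatives). RAB8B lost its call with DESeq2 (adjusted p = 0.12, the highest), without BRD9 KO replicate 2 (0.091) and without LacZ control replicate 2 (0.115).

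RAB26, of secretory granules, was at 20 and 20.1 CPM in BRD9 KO cells, against 21.5 and 25.6 CPM in LacZ control cells. The difference (log2 fold change −0.24 ± 0.08, SE, edgeR adjusted p = 0.0321) lost its call with DESeq2 (adjusted p = 0.223), without BRD9 KO replicate 1 (0.114), without BRD9 KO replicate 2 (0.0866) and without LacZ control replicate 2 (0.449, the highest over alternatives, at a log2 fold change of −0.10). RAB27A, which docks secretory lysosomes and is lost in Griscelli syndrome, was at 21.1 and 22.5 CPM in BRD9 KO cells, against 24.1 and 25.5 CPM in LacZ control cells. Its call stood closest to the threshold (log2 fold change −0.19 ± 0.07, SE, edgeR adjusted p = 0.0494) and was lost in 8 of 11 alternatives (adjusted p up to 0.299), the replicate block among them (0.0512). RAB27A also shares exons with a clone-named gene on its strand and with PIGB on the other. RAB3A, RAB3B and RAB3D, RABs of regulated exocytosis, were uncalled, with log2 fold changes from −0.03 to 0.02.

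RAB28, of the cilium, was at 19.6 and 16.5 CPM in BRD9 KO cells, against 20.8 and 21.7 CPM in LacZ control cells. Both values lay below the controls, and the call (log2 fold change −0.23 ± 0.09, SE, edgeR adjusted p = 0.0467) was lost in 5 of 11 alternatives, most clearly without BRD9 KO replicate 2 (log2 fold change −0.12, adjusted p = 0.413, the highest). RAB23, a negative regulator of Hedgehog signaling whose exons overlap BAG2 on the other strand, was at 31.6 and 32.8 CPM in BRD9 KO cells, against 36.9 and 34.1 CPM in LacZ control cells (edgeR adjusted p = 0.0835). The SOCS-box RABs RAB40B and RAB40C, adaptors of a ubiquitin ligase, were uncalled at log2 fold changes of 0.02 ± 0.08 and −0.10 ± 0.07 (SE), and RAB40C shares exons with WFIKKN1 on its strand.

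**Figure D3:**
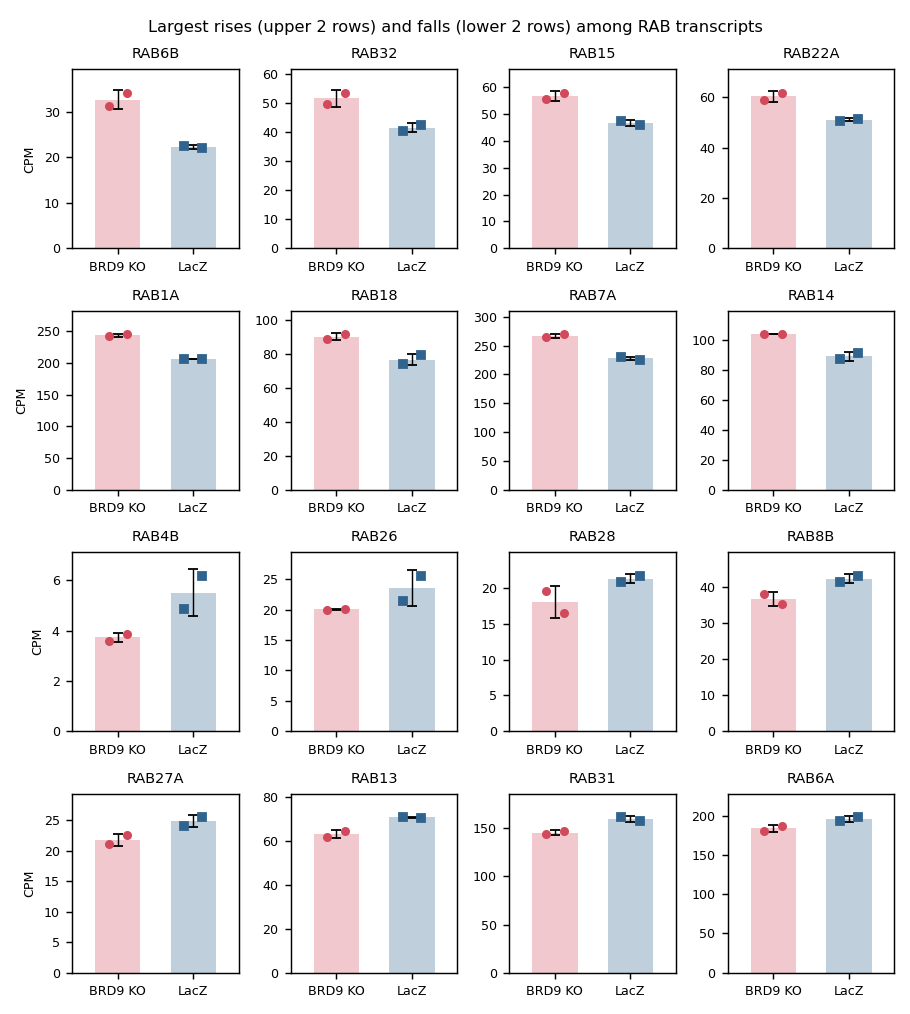
TMM-scaled CPM of the 8 RAB genes with the largest called rises (upper 2 rows) and of the 8 called lower (lower 2 rows); bars are group means, error bars the SD over 2 libraries and points single libraries. In every panel the BRD9 KO points (left) do not overlap the LacZ control points (right).

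The RAB genes outside the test were near or at the limit of detection. RAB37, of secretory granules, was highest among them, with 4 and 7 counts in BRD9 KO cells, against 11 and 10 counts in LacZ control cells. RAB40A had 7 and 1 counts in BRD9 KO cells, against 1 and 8 counts in LacZ control cells. RAB33A, RAB41, RAB42, RAB6C, RAB20, RAB44, RAB25 and the processed pseudogene RAB1C had 0 to 5 counts in each library, and RAB27B, RAB3C, RAB9B, RAB38 and RAB19 had 0 in all. A count of 0 allows up to 3 counts, that is 0.153 to 0.199 CPM at these totals, counting error only.

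The members of 2 paralog pairs that share a number were called in opposite directions, RAB6B with RAB6A and RAB8A with RAB8B. RAB22A (higher) and RAB31, also named RAB22B (lower), were opposed as well, and both of these calls held in every alternative. The RAB6B to RAB6A ratio in TPM was 0.169 and 0.182 in BRD9 KO cells, against 0.117 and 0.12 in LacZ control cells. The RAB8A to RAB8B ratio was 5.52 and 6.38 in BRD9 KO cells, against 4.79 and 4.25 in LacZ control cells. In both pairs that share a number the ratio was higher in each knockout library. The pairs were chosen by their opposite calls, so these ratios restate the calls and are no further result. Of these 4 genes RAB6B alone kept its call in every alternative.

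Of 11 paralog ratios compared, 9 did not overlap between groups, and each of these had the smallest two-sided exact permutation p that 2 libraries against 2 allow, 0.333. RAB5C enters 2 of the ratios. For single genes the CPM of 34.1% of all tested genes lay apart upward and of 34.5% downward, and the count of ratios is not a result about RAB paralogs. The RAB4B to RAB4A ratio was 0.0855 and 0.0775 in BRD9 KO cells, against 0.118 and 0.134 in LacZ control cells, and did not overlap. The RAB1A to RAB1B ratio was 4.01 and 3.97 in BRD9 KO cells, against 3.53 and 3.46 in LacZ control cells. RAB5C relative to RAB5A and to RAB5B, RAB11B relative to RAB11A, RAB39B relative to RAB39A and RAB40B relative to RAB40C were also higher in both knockout libraries, whereas the ratios of RAB2A to RAB2B and of RAB3B to RAB3D overlapped. Reads common to paralogs are split by the authors' model, and the posterior SD of the counts stayed at or below 2.47% for both RAB6 and both RAB8 genes.

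The sequences before the starts of the 2 opposed pairs that share a number are shown because the members of a pair share a protein family and not a promoter. On GRCh37, RAB6B lies at chr3:133543079-133614726 (minus strand), RAB6A at chr11:73386683-73472182 (minus), RAB8A at chr19:16222699-16245044 (plus) and RAB8B at chr15:63481759-63559975 (plus). The 250 bases before the outermost RefSeq start follow, from RefSeq on GRCh38.p14, read 5′ to 3′ on the strand of the gene: RAB6B at chr3:133895883-133896132, RAB6A at chr11:73761075-73761324, RAB8A at chr19:16111639-16111888 and RAB8B at chr15:63189356-63189605. Capitals mark matches on either strand to the motifs named AP-1 (TGACTCA), ETS (CCGGAAG), CRE (TGACGTCA), E-box (CACGTG) and GC box (GGGCGG), none of which contains another.
RAB6B: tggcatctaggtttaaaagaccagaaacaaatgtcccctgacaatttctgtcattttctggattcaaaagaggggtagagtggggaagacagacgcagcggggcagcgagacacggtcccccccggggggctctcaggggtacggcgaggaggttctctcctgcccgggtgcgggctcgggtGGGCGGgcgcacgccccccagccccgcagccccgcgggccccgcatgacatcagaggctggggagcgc
RAB6A: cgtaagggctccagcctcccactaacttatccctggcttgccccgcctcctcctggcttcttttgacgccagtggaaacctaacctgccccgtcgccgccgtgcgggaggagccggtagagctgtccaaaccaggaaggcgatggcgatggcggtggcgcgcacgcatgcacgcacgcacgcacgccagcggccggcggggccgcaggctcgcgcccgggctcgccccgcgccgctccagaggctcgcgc
RAB8A: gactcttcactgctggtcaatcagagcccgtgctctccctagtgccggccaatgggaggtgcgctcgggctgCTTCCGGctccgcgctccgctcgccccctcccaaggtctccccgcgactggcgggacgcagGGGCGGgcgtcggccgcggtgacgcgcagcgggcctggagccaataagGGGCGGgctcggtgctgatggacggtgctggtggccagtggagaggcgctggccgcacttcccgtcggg
RAB8B: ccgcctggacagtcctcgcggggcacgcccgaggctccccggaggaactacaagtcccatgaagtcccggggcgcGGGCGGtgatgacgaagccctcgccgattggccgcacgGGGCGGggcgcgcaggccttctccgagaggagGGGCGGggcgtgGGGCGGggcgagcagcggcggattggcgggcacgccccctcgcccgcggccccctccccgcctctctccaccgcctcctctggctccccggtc
RAB6B held 1 GC box and RAB6A held none of the 5 motifs, at 65.2 and 71.6% G and C. RAB8A held 2 GC boxes and 1 ETS match, and RAB8B held 4 GC boxes, at 72.4 and 77.2% G and C. RAB6B and RAB6A each have a second RefSeq start that is not shown.

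RefSeq windows were found for 47 of the 61 RAB genes, 67 windows in all. A GC box was in 74.6% of them, beside 42.6% of 35116 windows of all genes. The windows of all genes, here and below, come from 27305 genes, tested or not, whereas 38 of the 47 RAB genes were tested. Over the tested RAB genes with a window, a GC box was in 12 of 12 called higher, 7 of 7 called lower and 17 of 19 uncalled, and for RAB6A it lies in the window not shown. No share over all tested genes was computed, so the excess and these counts are not a result about RAB genes. The AP-1 letters were in 7.46% of RAB windows, beside 4.2% of all, and were found before RAB13, RAB34, RAB3B and RAB5B. The ETS, E-box and CRE letters were in 10.4, 7.46 and 1.49% of RAB windows, beside 8.52, 6.34 and 1.65% of all windows. These are matches of letters in a window and not sites of binding.

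RSEM also gives an abundance-weighted transcript length, which moves when the estimated mix of isoforms moves. It was longer in both BRD9 KO libraries than in both LacZ control libraries for 4 of the 46 RAB genes (8.7%, beside 16.7% of all tested genes) and shorter for 8 (17.4%, beside 14.3%). The largest difference was that of RAB27A, at 2457 and 2453 bases in BRD9 KO cells, against 2023 and 2196 bases in LacZ control cells. RAB27A was at 14.7 and 15.7 TPM in BRD9 KO cells, against 20.4 and 19.8 TPM in LacZ control cells, a log2 ratio of −0.41 per length beside −0.19 in counts. RAB6B was also longer, at 3076 and 3094 bases in BRD9 KO cells, against 2950 and 2760 bases in LacZ control cells, and its log2 ratio was 0.45 per length beside 0.55 in counts.

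RAB6A and RAB5C were the other longer genes, by little (log2 length ratios 0.03 and 0.01, beside 0.22 for RAB27A). RAB5C was at 1662 and 1658 bases in BRD9 KO cells, against 1650 and 1657 bases in LacZ control cells. RAB14 was shorter, at 3970 and 3942 bases in BRD9 KO cells, against 4145 bases in both LacZ control libraries, and its log2 TPM ratio of 0.30 exceeded the 0.22 in counts. RAB4A, RAB5A, RAB8A, RAB15, RAB18, RAB21 and RAB33B were the other shorter genes, and the length was the same in all libraries for 5 RAB genes. Of these 12 genes, 9 were called by counts, and each of the 9 had the same direction in TPM. Among all tested RAB genes 23 of 46 were called, and among all tested genes 38.6%. No share called was computed for all tested genes whose lengths did not overlap. Whether length and call go together in RAB genes was not tested. These lengths are model estimates from short reads, described here without a test.

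**Figure D4:**
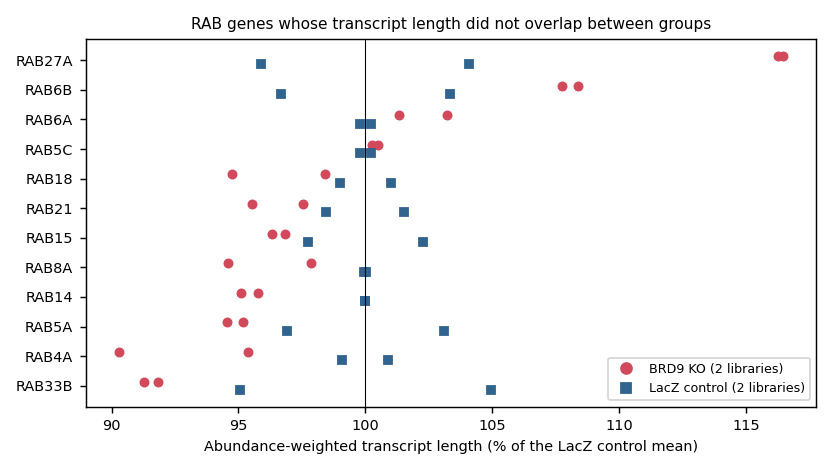
Abundance-weighted transcript length of the 12 RAB genes whose lengths did not overlap between groups, as a percent of the LacZ control mean of the gene (circles, BRD9 KO; squares, LacZ control). RAB27A and RAB6B stand to the right of their controls, and the 8 genes in the lower rows stand to the left.

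The genes that run the RAB cycle also changed in both directions. Of the 10 genes for prenylation, escort and GDI, all tested, 1 was called: RABGGTB, the catalytic subunit of the enzyme that prenylates RABs, at 83.3 and 83.7 CPM in BRD9 KO cells, against 70.8 and 71.0 CPM in LacZ control cells (log2 fold change 0.24, edgeR adjusted p = 4.78e-05). No other gene of this list passed by edgeR at an unadjusted p under 0.05 or by DESeq2. The 10.0% called lies below the 38.6% of all tested genes, at a median log2 fold change of 0.04.

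Of 34 tested exchange factors, 5 were higher in BRD9 KO cells and 9 were lower (41.2% called), at a median log2 fold change of −0.01. Of all tested genes, 20.5% were higher and 18.1% were lower (38.6% called). Among those with the smallest p, SBF2, a DENN-domain protein, showed a log2 difference of −0.60 (edgeR adjusted p = 4.81e-08), DENND4C, an activator of RAB10, −0.28 (3.21e-06) and DENND5A −0.21 (2.19e-05). Chosen after their values were seen, RAB3IP and RAB3IL1, both exchange factors of RAB8, were called in opposite directions. RAB3IP was at 5.44 and 4.10 CPM in BRD9 KO cells, against 9.42 and 9.30 CPM in LacZ control cells (log2 fold change −0.96, edgeR adjusted p = 4.77e-05), and RAB3IL1 was at 9.59 and 9.18 CPM in BRD9 KO cells, against 5.17 and 5.58 CPM in LacZ control cells (log2 fold change 0.80, edgeR adjusted p = 9.64e-05). In counts, both differences were larger than that of any RAB gene. Per length they were less clear. RAB3IP was at 3.35 and 3.37 TPM in BRD9 KO cells, against 3.71 and 6.15 TPM in LacZ control cells. RAB3IL1 was at 7.23 and 6.94 TPM in BRD9 KO cells, against 6.76 and 4.15 TPM in LacZ control cells. The estimated length of both transcripts differed between the 2 LacZ control libraries. The count of higher exchange factors was 3 without LacZ control replicate 2 and 3 with DESeq2.

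Of 32 tested GTPase-activating proteins, 9 were higher in BRD9 KO cells and 3 were lower (37.5% called, beside 38.6% of all tested genes), at a median of 0.07. By smallest p, TBC1D2, which inactivates RAB7, was at 48.6 and 51.1 CPM in BRD9 KO cells, against 30.6 and 29.3 CPM in LacZ control cells (log2 fold change 0.73, edgeR adjusted p = 3.51e-09), and was followed by TBC1D2B (0.34), TBC1D9 (0.49) and TBC1D9B (0.21). Of 47 tested effectors, 15 were higher and 9 were lower (51.1% called), at a median of 0.06, beside 20.5% higher and 18.1% lower of all tested genes. The part of expression level in these counts was not tested. By smallest p the called effectors were OPTN, an effector of RAB8 (0.39, edgeR adjusted p = 7.12e-09), RAB11FIP1, of RAB11 (0.35, 1.31e-08), SYTL2, of RAB27 (0.36, 1.38e-05), and APPL1, of RAB5 (−0.18, 1.99e-05). The largest fall and rise of the effector list, chosen after their values were seen, were MYO5B, a motor that binds RAB11 (−0.92, edgeR adjusted p = 7.73e-05), and PLEKHM1, which binds RAB7 (0.54, 3.09e-05). The effector list also counts ST5 (DENND2B, log2 fold change 0.19), which is known as an exchange factor of RAB13. The counts of lower genes in these lists were not stable: for GTPase-activating proteins it was 0 without BRD9 KO replicate 2 (5 at an unadjusted p under 0.05), 1 without LacZ control replicate 2 and 0 with DESeq2 (2 at an unadjusted p under 0.05), and for effectors 4 without BRD9 KO replicate 1, 5 without BRD9 KO replicate 2, 4 without LacZ control replicate 1 and 3 with DESeq2.

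**Figure D5:**
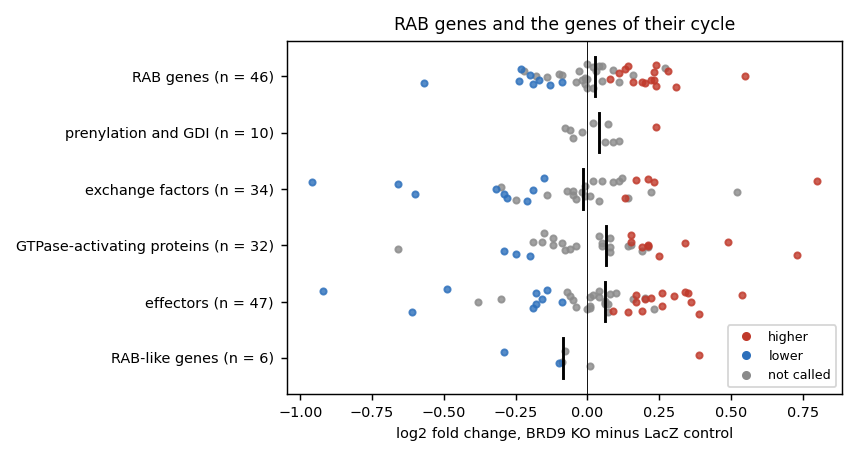
Log2 fold change (BRD9 KO minus LacZ control) of the tested RAB genes, of 4 lists of genes that act on or with RABs, and of RAB-like genes; points are genes, colored by the edgeR call, and black bars are medians. The RAB genes lie between −0.57 and 0.55. Exchange factors (−0.96 to 0.8) and GTPase-activating proteins (−0.66 to 0.73) reach further to either side, and effectors (−0.92 to 0.54) only to the left. The lowest GTPase-activating protein, TBC1D10C, is not called.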

How the data were processed

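RNA-seq of 2 BRD9 KO and 2 LacZ control libraries of G401 cells was analysed. The submitters' processing notes name STAR, RSEM, DESeq2 and the build hg19, without versions. The deposited expected count (estimated count) of a gene, unscaled, divides reads shared by several genes between them. The deposited TPM, which the authors' RSEM run scaled by effective length and library, was used to compare levels between genes. The library kit (NEBNext Ultra, not its directional version) does not mark strand.

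Expected counts were rounded and tested on the whole table in R 4.3.3 by edgeR 4.0.16 (quasi-likelihood, TMM, filterByExpr, robust, no covariate, two-sided, Benjamini-Hochberg over 15288 genes). Genes under an adjusted p of 0.05 are termed called, and positive log2 values mean higher in BRD9 KO. The SE of a log2 fold change was derived from this test, as the absolute log2 fold change over the square root of its F statistic. The 2 replicates of a group differed by more than sampling noise (chi-square over its degrees of freedom: BRD9 KO 1.57, LacZ control 1.6). Alternatives were DESeq2 1.42.0, RLE size factors, library totals, no filter, at least 1 CPM in all libraries, posterior mean counts, replicate number as a block, and each library left out. Replicate numbers showed no pairing of libraries over all genes, which does not exclude one, as given below. Single ratios used an exact permutation test (scipy 1.17.1).

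Coordinates and exon overlaps came from GENCODE v44 on GRCh37, matched on the Ensembl identifier for 55538 of 57820 models. Roles and the lists of exchange factors, GTPase-activating proteins, effectors and others were set by hand; the RAB genes and these lists were chosen with earlier results of these data known. Every RAB gene of the naming rule is named. Values per library are given for the 8 largest called rises, the 8 called falls, the 5 highest by TPM and paralogs called in opposite directions, and log2 fold changes for up to 4 called genes by smallest p per list, of which 1 is not reported here.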

Additional observations from a re-analysis of the deposited data

How the results depend on the processing

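No call of a RAB gene changed direction under any of the 11 alternatives. Of the 23 called RAB genes, 22 kept the call with RLE size factors, 21 with library totals, 21 with no filter, 22 with at least 1 CPM in all libraries, 23 with posterior mean counts, 12 with DESeq2, 17 without BRD9 KO replicate 1, 16 without BRD9 KO replicate 2, 18 without LacZ control replicate 1 and 12 without LacZ control replicate 2. With the replicate block 22 kept it (RAB27A did not), with 15 higher and 7 lower. The differences between replicates 1 and 2 correlated at −0.0535 between groups over 15288 genes, so no pairing by replicate number was seen. Counting noise in these differences can hide a shared part, so a pairing is not excluded. DESeq2 gave 11 higher and 1 lower RAB gene.

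With a library left out, counts were as follows, higher then lower: RAB genes 11 to 13 and 2 to 6; prenylation and GDI 1 to 2 and 0 (0 at an unadjusted p under 0.05 by edgeR, 0 by DESeq2); exchange factors 3 to 5 and 7 to 9; GTPase-activating proteins 6 to 8 and 0 to 3; effectors 12 to 14 and 4 to 6; RAB-like genes 1 and 0 to 2. DESeq2 called 3 exchange factors higher, 0 GTPase-activating proteins lower (2 at an unadjusted p under 0.05), 3 effectors lower and 0 RAB-like genes lower (1 at an unadjusted p under 0.05). Lower GTPase-activating proteins numbered 5 with library totals and 5 with at least 1 CPM in all libraries, and lower effectors 5 with no filter. The median log2 fold change of RAB genes ran from 0.01 to 0.04. The cause of these differences was not tested. A left-out library leaves 1 in its group, which is then assumed to vary like the other group. At 2 libraries a group, differences of RAB genes under 10 CPM (median SE of 0.29 on the log2 scale over all genes in that band) were not resolved as those above 100 CPM were (0.03).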

Other observations

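Genes related to the RAB family but outside the naming rule were also measured. Of 9 RAB-like genes, 6 were tested, 1 was higher in BRD9 KO cells and 2 were lower, beside 20.5% and 18.1% of all tested genes. RAB7L1, also known as RAB29 and linked to LRRK2 and lysosomes, was at 29.9 and 32.1 CPM in BRD9 KO cells, against 22.7 and 24.5 CPM in LacZ control cells, a difference of 0.39 on the log2 scale (edgeR adjusted p = 2.20e-04) that kept its call in every alternative (adjusted p up to 0.0124). RABL2A, of the cilium, was at 19.5 and 19.7 CPM in BRD9 KO cells, against 22.7 and 25.1 CPM in LacZ control cells (log2 fold change −0.29, edgeR adjusted p = 0.00593), and lost its call with DESeq2 (adjusted p = 0.0843) and without LacZ control replicate 2 (0.106, the highest over alternatives). RABL6 was at 153.1 and 157.2 CPM in BRD9 KO cells, against 161.9 and 170.7 CPM in LacZ control cells (log2 fold change −0.10, edgeR adjusted p = 0.0108), and lost its call with DESeq2 (0.163), without BRD9 KO replicate 1 (0.116) and without LacZ control replicate 2 (0.211, the highest). RABL2A has a near-identical copy, RABL2B, and how reads were divided between them is a model estimate. The count of lower RAB-like genes was 1 without BRD9 KO replicate 1 and 0 without LacZ control replicate 2 (1 at an unadjusted p under 0.05).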
